A study of Mus musculus with 6 samples.

Results

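Activated T cells secrete cytokines that act on macrophages, granulocytes and their precursors, and 8 of the genes that encode them were followed here: Ifng, Tnf, Lta and Ltb, the type 1 cytokine and its companions of the TNF family, and Csf2, Il3, Lif and Osm, which act on the growth of myeloid cells or signal through the shared receptor chain gp130. The genes were chosen by name, as the rows of the gene and transcript tables whose Ensembl identifier belongs to one of these symbols. All 8 were found among the 52550 genes of the table, with 15 of its 131146 transcripts, and all 8 passed the filter on low counts that left 14786 genes to test. The RNA came from splenic CD3+ T cells of wild-type mice, isolated magnetically and stimulated for 24 h with anti-CD3 and anti-CD28 antibodies, which engage the T cell receptor (TCR) and its costimulator. Of the samples, 3 had this stimulus and nothing else (TCR alone), and 3 also had DMGV, dimethylguanidino valeric acid, at 100 ng/ml (TCR+DMGV), so both groups are activated and no resting T cells were analysed here. The study's mice were young adults of both sexes, and the strain, the sex and any pooling behind these 6 samples are not given in the sources used here. The labels name DMGV, while the study's text describes an experiment of the same dose and time with LNY1, a factor purified from medium of mouse embryonic fibroblasts. The study equates LNY1 with the dimethylarginines ADMA and SDMA, which it describes as turned into DMGV by the enzyme AGXT2. Whether DMGV or LNY1 was added cannot be told apart here. A mouse spleen holds CD4 and CD8 T cells together, so a level is an average over both. In such bulk RNA, fewer producing cells and less RNA per producing cell cannot be told apart.

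IFN-γ, the product of Ifng, activates macrophages and antigen presentation through the receptor IFNGR1/IFNGR2, and the transcription factors T-bet and Eomes drive its gene in T cells. TNF and the lymphotoxins LTα (Lta) and LTβ (Ltb) signal to NF-kB through the TNF receptors and the LTβ receptor. LTα can be secreted, or held at the cell surface in a complex with LTβ. GM-CSF (Csf2) and IL-3 (Il3) share the β chain of their receptors and support granulocytes, macrophages, mast cells and basophils, while LIF and oncostatin M (Osm) signal through gp130 (Il6st) to STAT3. Many cytokine mRNAs are short-lived, because AU-rich stretches of their 3′ UTRs are bound by decay factors such as tristetraprolin (Zfp36). Regnase-1 (Zc3h12a) cuts cytokine mRNAs at stem-loops.

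The 8 genes lie at 3 clusters and 1 single locus. In GENCODE M21 (GRCm38), Ltb (chr17:35194439-35196320, plus strand), Tnf (chr17:35199381-35202007, minus strand) and Lta (chr17:35203165-35205351, minus strand) stand side by side, with 3060 bp between Ltb and Tnf and 1157 bp between Tnf and Lta. Csf2 (chr11:54247271-54249667, minus strand) and Il3 (chr11:54265303-54267277, minus strand) are 15635 bp apart. Osm (chr11:4236420-4241026, plus strand) and Lif (chr11:4257557-4272514, plus strand) are 16530 bp apart, and Ifng (chr10:118441046-118445892, plus strand) stands by itself. The libraries are not stated to be stranded, so reads of Csf2 and of the antisense gene Gm12223, with 125 counts over the 6 samples, cannot be told apart where the genes overlap. Ifng overlaps Gm49751 on its own strand, with 508 counts, and Lta and Ltb each overlap a miRNA gene, with 72 counts for Mir6974 and 74 for Mir6973a.

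The following sequences show the AU-rich stretches of 3 of the mRNAs, since these mark short-lived cytokine messages. The pentamer ATTTA, counted with overlaps on the RNA strand, occurred in the 3′ UTR of 7 of the 8 genes, Ltb having none, against 67.7% of 11506 tested genes with a 3′ UTR of at least 50 bases. For each gene the coding transcript with most counts was taken. Shown are the 30 bases of the 3′ UTR that hold most pentamers in Csf2 (chr11:54247324-54247353, minus strand, 5 pentamers), Tnf (chr17:35199677-35199706, minus strand, 5 pentamers) and Ifng (chr10:118445333-118445362, plus strand, 3 pentamers), with the pentamers in capitals.
Csf2: aaatATTTATTTATTTATTTATTTAttttt
Tnf: tATTTAttATTTATTTAttATTTATTTAtt
Ifng: ctATTTAttaatATTTAaaactATTTAtat
Pentamers in the Csf2 stretch follow each other without a gap, each sharing its last base with the next. Csf2 had 28.4 pentamers per kb of 3′ UTR, more than 99.96% of the genes searched, whose median was 1.26 per kb. Tnf had 10.5 per kb, Il3 9.90, Ifng 9.51, Osm 5.90 and Lta 5.24, all above the 90th percentile of 4.18 per kb. The value of Il3 rests on 1 pentamer in a 3′ UTR of 101 bases. Lif had 7 pentamers in 3180 bases, or 2.20 per kb, more than 68.8% of genes. The longer motif TTATTTATT occurred 5 times in Tnf, 4 times in Csf2, 2 times in Lif and 1 time in Lta, and in 7.49% of all genes searched. A match is a string of letters and not a measured binding site.

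**Figure D1:**
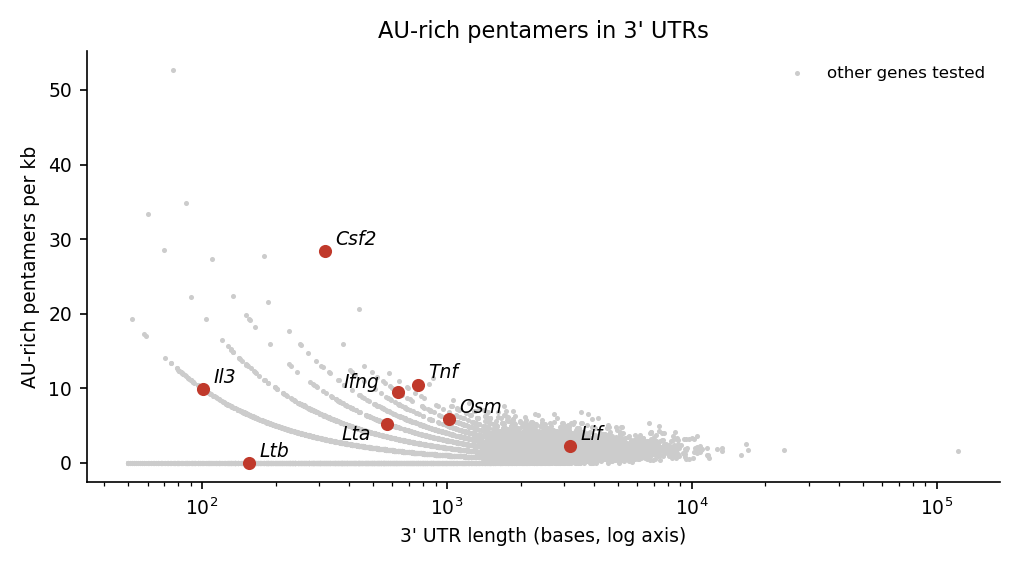
Pentamers ATTTA per kb of 3′ UTR (y axis) against 3′ UTR length in bases (x axis, log scale), for the 8 cytokine genes (red, named) and the other tested genes (grey). Csf2 stands highest of the 8 at 28.4 per kb, and Ltb has none.

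Promoter windows of RefSeq (GRCm38.p6), from 250 bases before to 50 bases after the start, were matched for 7 of the 8 genes. Those of Tnf (chr17:35201958-35202257, minus strand) and Ifng (chr10:118440796-118441095, plus strand) are shown, as the gene with the smallest p of the comparison and the gene with the highest level. Capitals mark matches on either strand to 5 motifs, allowing overlaps. The core motif of NFAT, the calcium-dependent factor of T cell activation, was searched as GGAAAA. The motif of AP-1, its usual partner, was searched as TGACTCA. That of STAT factors was searched as TTCNNNGAA, the TATA box as TATAAA and the NF-kB motif in the loose form GGRRNNYYCC. Here N is any base, R is A or G, and Y is C or T.
Tnf: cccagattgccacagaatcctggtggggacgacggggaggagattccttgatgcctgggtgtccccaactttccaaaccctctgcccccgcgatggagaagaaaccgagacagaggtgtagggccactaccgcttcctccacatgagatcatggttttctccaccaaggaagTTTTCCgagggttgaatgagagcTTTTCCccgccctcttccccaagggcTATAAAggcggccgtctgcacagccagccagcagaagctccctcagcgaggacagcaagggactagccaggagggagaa
Ifng: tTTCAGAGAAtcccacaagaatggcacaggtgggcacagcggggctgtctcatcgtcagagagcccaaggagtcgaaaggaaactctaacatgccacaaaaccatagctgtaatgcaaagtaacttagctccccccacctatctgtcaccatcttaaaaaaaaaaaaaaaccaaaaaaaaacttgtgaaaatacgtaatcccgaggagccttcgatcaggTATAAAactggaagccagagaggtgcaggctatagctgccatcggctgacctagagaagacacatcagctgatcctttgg
In Tnf, 2 NFAT matches began 78 and 55 bases before the start and a TATA match 29 bases before it. Of 27025 promoters, 23.6% held an NFAT match, 3.70% held 2 or more, and 14.2% held a TATA match. In Ifng, a TATA match began 30 bases and a STAT match 249 bases before the start, and 8.47% of promoters held a STAT match. The Lta window held 2 STAT matches and 1 each of TATA and NF-kB, that of Ltb 1 STAT and 1 NF-kB match, and that of Lif 1 AP-1 and 1 NF-kB match. AP-1 matches occurred in 5.17% and NF-kB matches in 10.9% of promoters. None of the 5 motifs occurred in the windows of Csf2 and Il3. The RefSeq start of Csf2 lies upstream of the GENCODE start. Its window (chr11:54249850-54250149, minus strand) lies wholly outside the GENCODE gene (chr11:54247271-54249667), so the sequence next to the GENCODE start was not searched.

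All 6 libraries were deep enough to count each of these genes. Total counts ran from 37758725 to 43718867 per sample, and the lowest count of a cytokine gene in any sample was 254, for Il3 in TCR alone replicate 3. On the first principal component of log2 CPM (counts brought to 1 library size by TMM), which held 32.2% of the variance, TCR alone replicate 3 (42.1) and TCR+DMGV replicate 1 (42.9) stood apart from the other 4 samples (-34.9 to -10.5), so results are also given without these 2 libraries. The labelled cell type was checked against 13 T cell markers, all of them expressed, with Lck the most abundant at a mean of 599.7 CPM, and their CPM summed to between 4083 and 4836 in every sample. The markers of other cells were low. The B cell list summed to at most 11.4 CPM, with Cd79b the most abundant, the monocyte and macrophage list to at most 12.8 CPM (Csf1r), the dendritic cell list to at most 9.80 CPM (Itgax), the NK cell list to at most 2.63 CPM (Klre1) and the mast cell and basophil list to at most 0.606 CPM (Gata2). Cd14, Siglech, Cd209a, Fcer1a, Prss34 and all 6 neutrophil markers (S100a8, S100a9, Ly6g, Mpo, Elane and Retnlg) had 0 counts in all samples.

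Ifng stood far above the other 7 cytokine genes in these activated T cells. Levels between genes were compared in FPKM, fragments scaled to gene length and depth, as the authors deposited them. The mean level of Ifng over the 6 samples was 421 FPKM, with a range from 359 to 475. Ifng held between 69.2% and 78.4% of the summed FPKM of the 8 genes, and in CPM it was above 98.5% of the genes tested. Lta followed at 56.9 FPKM (48.1 to 63.4), 7.39-fold below Ifng as a geometric mean of the ratios, and then Ltb at 33.0 FPKM (27.2 to 39.6). Tnf had a mean of 17.8 FPKM (15.2 to 21.2) and Lif one of 16.5 FPKM (14.8 to 19.4). Csf2 at 11.0 FPKM (8.32 to 13.4) and Il3 at 10.4 FPKM (8.87 to 12.3) lay lower, and Osm was lowest at 5.14 FPKM (4.74 to 5.85).

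Neighbours in this order were compared within samples by an exact two-sided sign-flip test of their log2 ratios over the 6 samples, adjusted over the 7 pairs. The smallest p this test can give is 0.03125. The order was taken from the means of these same 6 samples, so the tests are not independent support for it. Ifng over Lta, Lta over Ltb, Ltb over Tnf, Lif over Csf2 and Il3 over Osm each held in 6 of 6 samples, and each had an adjusted p of 0.0438 in this exact test. Tnf and Lif differed by 0.11 on the log2 scale, less than the SD of that ratio over the samples (0.24), and Tnf was higher in 4 of 6 samples (adjusted p = 0.401, exact test). Csf2 and Il3 differed by 0.07, with an SD of 0.24, and Csf2 was higher in 4 of 6 samples (adjusted p = 0.531, exact test). Pooled over both groups, these samples therefore do not order Tnf against Lif, or Csf2 against Il3. Tnf was above Lif in every TCR+DMGV sample (20.9, 17.7 and 21.2 against 19.4, 14.8 and 15.2 FPKM). With TCR alone, Tnf was above Lif in replicate 2 only. The order within a group was not tested.

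**Figure D2:**
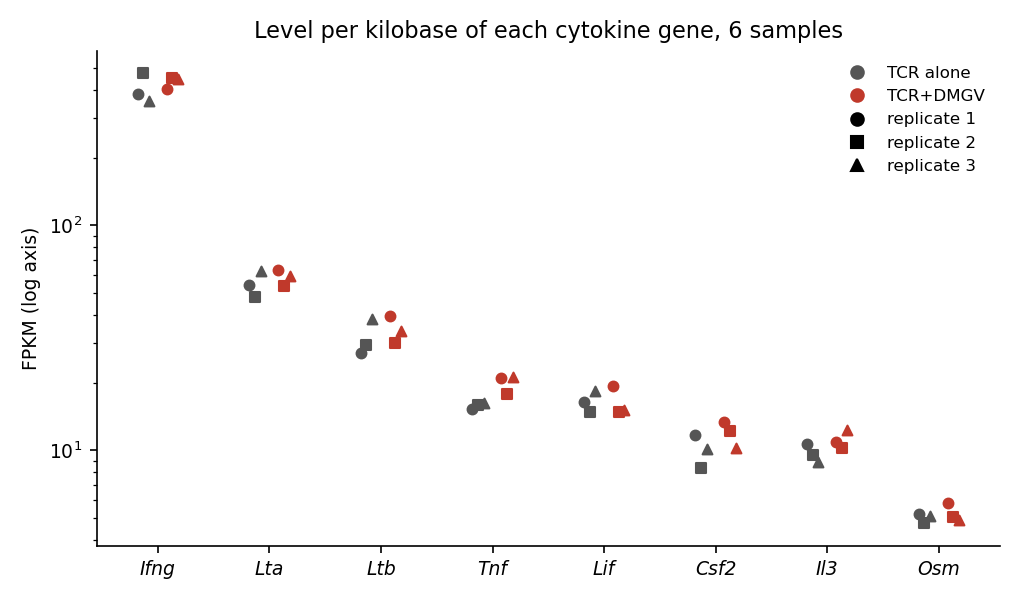
FPKM of each cytokine gene (log axis) in the 3 TCR alone samples (grey) and the 3 TCR+DMGV samples (red), genes ordered by mean, marker shape giving the replicate. Ifng lies at 359 to 475 FPKM and no other gene exceeds 63.4 FPKM.

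The comparison of TCR+DMGV with TCR alone asks whether the compound changes cytokine transcripts of activated T cells. None of the 8 genes passed the threshold of an adjusted p under 0.05 in edgeR's quasi-likelihood test, which was two-sided and adjusted by Benjamini-Hochberg over all 14786 genes tested, and each had an adjusted p of 0.999. Among all genes tested 2 passed, or 0.0135%. DESeq2 and limma on FPKM also called none of the 8. At an unadjusted p under 0.05, edgeR gave 1 of the 8, Tnf, which was higher, against 1.63% of all genes higher and 3.19% in either direction. The fitted change was above 0 for all 8 genes, with a median of 0.13 on the log2 scale, against 50.6% of all genes and a median of 0.002. The T cell markers moved likewise, with 13 of 13 above 0 and a median of 0.13, none past the threshold. The groups of 3 of the 13 did not overlap, TCR+DMGV being above, against 4.92% of all genes. At an unadjusted p under 0.05 (edgeR) 1 of the 13 was higher, against 1.63% of all genes. The part of this in the cytokine values was not tested. The NK cell markers, a list of 5 with 3 above the filter, summed to 1.11 to 1.26 CPM with TCR alone and 1.97 to 2.63 CPM with DMGV, which did not overlap. NK cells also express Ifng, and the part of these markers in the values was not tested. Klre1, the most abundant of them, had a log2 fold change of 1.37 (unadjusted p = 0.038, edgeR), and none of the 5 was at 0 in all samples. Among the 3 tested, only the groups of Klre1 did not overlap, against 4.92% of all genes with the TCR+DMGV samples above. All 3 tested were above 0, with a median log2 fold change of 1.04, and none was past the threshold. The mean of Klre1 was only 0.679 CPM. No background was taken for the sums, and a rise of the markers as a set was not tested. Without TCR alone replicate 3 and TCR+DMGV replicate 1, 7 of the 8 cytokine genes were above 0, with a median of 0.18, and 13 of 13 T cell markers, with a median of 0.15. These 8 genes were read from the same 6 libraries and are not replicates of each other.

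Tnf had the largest fitted change of the 8 with all 6 samples. Its CPM was 27.8, 29.7 and 29.1 in TCR alone replicates 1, 2 and 3 and 37.8, 33.1 and 39.9 in TCR+DMGV replicates 1, 2 and 3. All 3 TCR+DMGV samples lay above the highest TCR alone sample, and Tnf was the only 1 of the 8 genes whose groups did not overlap, against 4.92% of all genes with the TCR+DMGV samples above. The mean was 28.9 ± 0.974 CPM (SD, n = 3) with TCR alone and 36.9 ± 3.45 CPM (SD, n = 3) with DMGV. The log2 fold change was 0.35 (SE 0.10), a fold of 1.28 with a 95% interval from 1.08 to 1.51, unadjusted p = 0.0097 and adjusted p = 0.999 by edgeR. An exact permutation test of 3 against 3 samples cannot go below 0.1, which is the value it gave for Tnf. The change of Tnf lay between 0.30 and 0.43 with any 1 sample left out, with unadjusted p from 0.0064 to 0.044 (edgeR), and was 0.35 without both samples that stood apart (unadjusted p = 0.040, edgeR). The TCR alone samples varied by 3.37% of their mean (coefficient of variation), close to the counting error of 3.08% at the lowest count of 1057, while the TCR+DMGV samples varied by 9.35%.

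**Figure D3:**
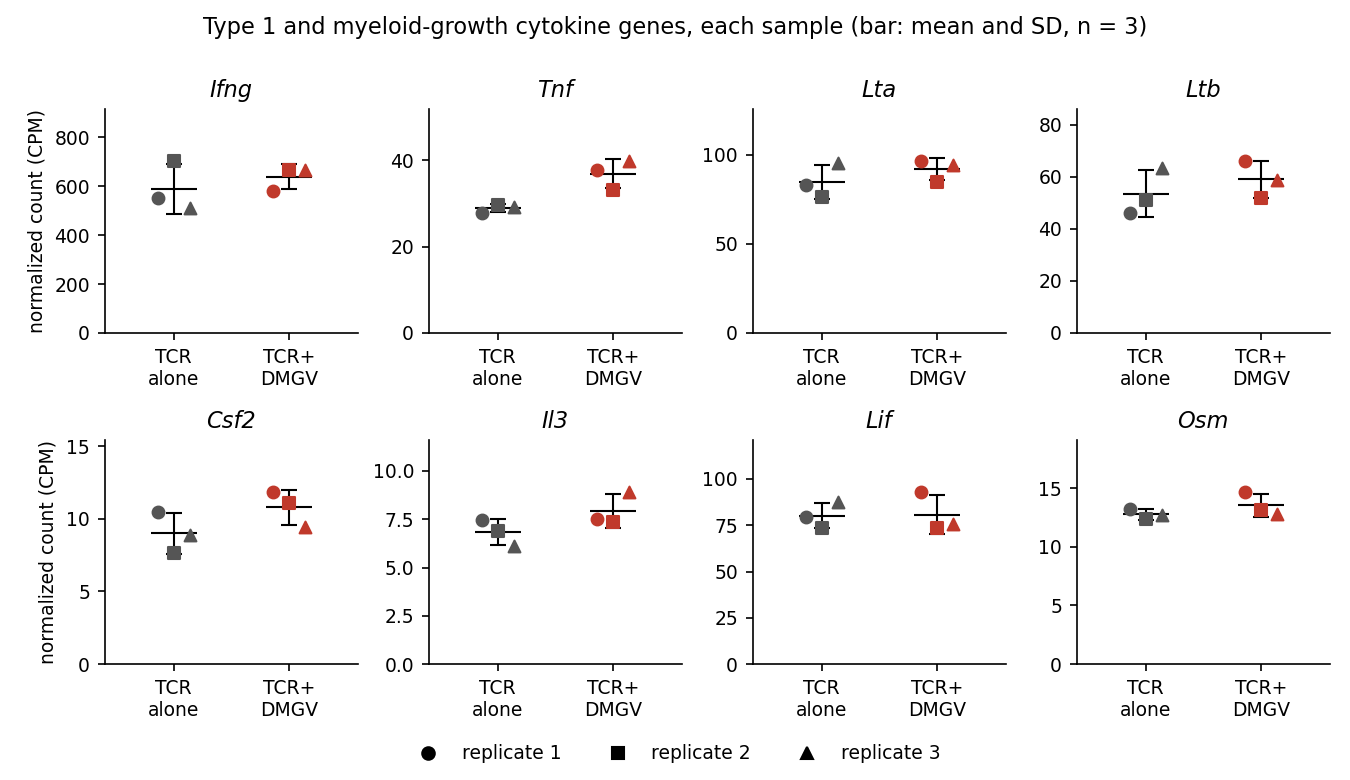
Normalized counts (CPM, y axis from 0) of each cytokine gene in every sample, TCR alone in grey and TCR+DMGV in red, marker shape giving the replicate, bars the mean and SD of 3 samples. The 3 Tnf values with DMGV (33.1 to 39.9 CPM) lie above all 3 without (27.8 to 29.7 CPM), and the groups of the other 7 genes overlap.

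Lta and Ltb, the lymphotoxin genes on either side of Tnf, overlapped between groups. The CPM of Lta was 83.3, 76.3 and 95.2 in the TCR alone samples and 96.7, 85.0 and 94.5 in the TCR+DMGV samples, a log2 fold change of 0.12 (SE 0.11, 95% interval -0.13 to 0.37). That of Ltb was 45.9, 51.2 and 63.5 with TCR alone and 66.1, 51.9 and 58.9 with DMGV, a log2 fold change of 0.14 (SE 0.15, 95% interval -0.21 to 0.49). With 1 sample left out, the change of Lta ran from 0.04 without TCR alone replicate 2 to 0.21 without TCR alone replicate 3, and that of Ltb from 0.02 without TCR alone replicate 1 to 0.29 without TCR alone replicate 3. For both genes, the highest TCR alone value was that of replicate 3 and the highest TCR+DMGV value that of replicate 1, the samples that stood apart on the first component. The log2 ratio of Tnf to Lta in CPM was -1.58, -1.36 and -1.71 in the TCR alone samples and -1.36, -1.36 and -1.24 in the TCR+DMGV samples. It was higher by 0.23 with DMGV, and the groups overlapped. An exact two-sided permutation test gave p = 0.2, or 0.8 after adjustment over the 4 pairs of neighbours compared. The overlap lay in the replicates numbered 2, at -1.3581 with TCR alone and -1.3585 with DMGV. In FPKM the difference was also 0.23, with an unadjusted p = 0.1 by the same exact test. With 1 sample left out, the difference in CPM lay between 0.15 and 0.33. The ratio of Ltb to Lta differed by 0.03 between the groups (p = 0.8, exact permutation test). With 3 samples a group the exact test cannot go below 0.1 before adjustment, so it could not have called a difference.

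Ifng, the most abundant of the 8, varied more between TCR alone samples than between groups. Its CPM was 553, 705 and 510.0 in TCR alone replicates 1, 2 and 3 and 580, 669 and 668 in TCR+DMGV replicates 1, 2 and 3. Both the lowest and the highest value were TCR alone samples. The means were 589 ± 102 CPM and 639 ± 51.4 CPM (SD, n = 3 each), and the log2 fold change was 0.12 (SE 0.13, 95% interval -0.19 to 0.42, adjusted p = 0.999). The interval corresponds to a fold from 0.876 to 1.34, so a change beyond 1.34-fold lies outside it. Counting error was small for this gene, 0.690% at its lowest count of 21004, and the spread of the TCR alone samples was 17.4% of their mean. The size moved with the TCR alone sample left out, to 0.26 without replicate 2 (unadjusted p = 0.033, edgeR, adjusted p = 0.9998), 0.06 without replicate 1 and 0.03 without replicate 3 (unadjusted p = 0.710 and 0.824, edgeR).

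Csf2 and Il3, the genes of the cluster on chromosome 11 that encode GM-CSF and IL-3, followed Tnf in fitted change with all 6 samples and were the lowest in count. The CPM of Csf2 was 10.5, 7.65 and 8.89 with TCR alone and 11.8, 11.1 and 9.46 with DMGV, and 2 of the 3 DMGV samples lay above the highest TCR alone sample. Its log2 fold change was 0.26 (SE 0.16, 95% interval -0.12 to 0.65, unadjusted p = 0.149, edgeR). The CPM of Il3 was 7.45, 6.89 and 6.14 with TCR alone and 7.53, 7.34 and 8.91 with DMGV, a log2 fold change of 0.22 (SE 0.15, 95% interval -0.14 to 0.57, unadjusted p = 0.195, edgeR). With 1 sample left out, Csf2 ranged from 0.16 (without TCR alone replicate 2) to 0.37 and Il3 from 0.12 (without TCR+DMGV replicate 3) to 0.27. Their rank also moved. Without TCR alone replicate 3, Ltb (0.29) was above both and Lta (0.21) above Il3. Without TCR alone replicate 2, Ifng (0.26) was above both. Without TCR+DMGV replicate 3, Ltb (0.14) was above Il3. Csf2 was above Tnf without TCR alone replicate 1 (0.37 against 0.31) and without TCR+DMGV replicate 3 (0.35 against 0.30). The sample order differed between these neighbours. TCR+DMGV replicate 3 was the highest of the 6 for Il3 and the lowest DMGV sample for Csf2, and TCR alone replicate 2 was the lowest of the 6 for Csf2 and in the middle of its group for Il3. The log2 ratio of Csf2 to Il3 ran from 0.15 to 0.53 with TCR alone and from 0.09 to 0.65 with DMGV (p = 0.7, exact permutation test). At 312 to 527 counts for Csf2 and 254 to 353 for Il3, counting error was up to 5.66% and 6.27% of a value.

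Lif and Osm, the neighbours that signal through gp130, had the smallest fitted changes with all 6 samples. The CPM of Lif was 79.2, 73.8 and 87.3 with TCR alone and 92.9, 73.3 and 75.9 with DMGV, so the DMGV group held both the highest and the lowest sample. The log2 fold change was 0.01 (SE 0.12, 95% interval -0.27 to 0.29), and its sign turned with the scaling and with the sample left out, from -0.11 without TCR+DMGV replicate 1 to 0.08 without TCR alone replicate 3. Osm had 13.2, 12.3 and 12.7 CPM with TCR alone and 14.7, 13.1 and 12.8 CPM with DMGV. Its log2 fold change was 0.08 (SE 0.11, 95% interval -0.18 to 0.35), and only TCR+DMGV replicate 1 exceeded the highest TCR alone sample. The Osm values of the TCR alone samples varied by 3.42%, within the counting error of 4.46% at the lowest count of 502. The log2 ratio of Lif to Osm differed by -0.08 between groups (p = 0.4, exact permutation test), and by -0.12 to -0.0099 with 1 sample left out.

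**Figure D4:**
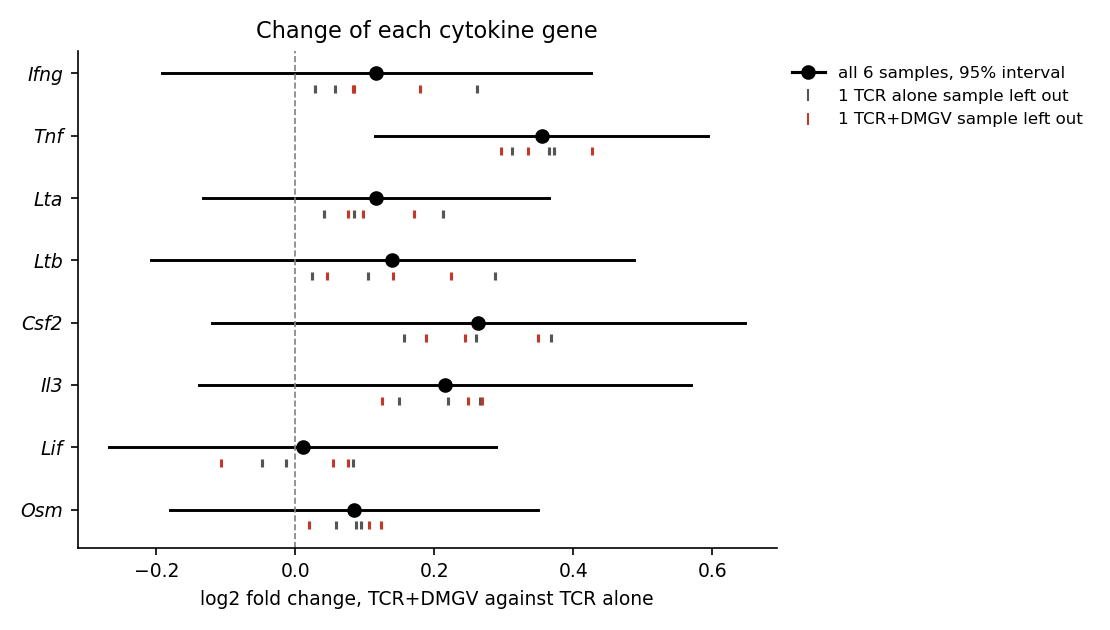
Log2 fold change of each cytokine gene, TCR+DMGV against TCR alone, from edgeR with its 95% interval (black), and the same value with 1 TCR alone sample (grey ticks) or 1 TCR+DMGV sample (red ticks) left out. The interval of Tnf runs from 0.12 to 0.59 and those of the other 7 genes include 0.

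TCR+DMGV replicate 1 was the highest of the 6 samples for 5 of the 8 genes (Lta, Ltb, Csf2, Lif and Osm), and it was above the 6-sample mean of log2 CPM for 7 of 8. TCR+DMGV replicate 3 was the highest for Tnf and Il3 and TCR alone replicate 2 for Ifng. Without TCR+DMGV replicate 1, the median change of the 8 genes was 0.13, as with it. The change of Osm was then 0.02, that of Ltb 0.05, that of Lta 0.08 and that of Ifng 0.18, each more than 1.5 times from the value with all samples, and that of Lif was -0.11. None of the 8 passed the threshold with any 1 sample left out (edgeR).

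The transcripts of these genes were compared as well, since a gene's total does not show a change of isoform. Of the 15 annotated transcripts 14 passed the filter, and none was past the threshold (edgeR), as was none of the 38401 transcripts tested (0%). At an unadjusted p under 0.05 there was 1, Tnf-201, with a log2 fold change of 0.38 (SE 0.13, unadjusted p = 0.030, edgeR), against 3.22% of all transcripts. No cytokine transcript had an unadjusted p under 0.05 (edgeR) with the replicate number as a block. The same held with any 1 of TCR alone replicates 1 and 3 and TCR+DMGV replicates 1 and 3 left out. Lta, Csf2 and Il3 have a single annotated transcript each. Ifng-201 held at least 99.8% of the Ifng counts in every sample, the rest lying in the retained intron form Ifng-202. The second Tnf transcript, Tnf-202, had 57 counts in TCR alone replicate 2 and 0 in the other 5 samples.

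Ltb differed in its transcripts mainly through 1 sample. The retained intron form Ltb-202 held 12.1%, 11.4% and 19.3% of the Ltb counts in the TCR alone samples and 15.9%, 1.25% and 16.3% in the TCR+DMGV samples. TCR+DMGV replicate 2 stood apart, with 28 counts where the other samples had 211 to 507. Counts of the coding transcript Ltb-201 were 1484, 1705 and 1987 with TCR alone and 2382, 2187 and 1831 with DMGV, a log2 fold change of 0.22 (SE 0.14, unadjusted p = 0.156, edgeR). Lif-202 held between 79.9% and 93.3% of the Lif counts, and the other coding form, Lif-201, between 5.02% and 18.8%. The replicates numbered 2 had the highest share of Lif-201 in each group, 18.8% and 15.1%. Osm-202, a transcript without a coding sequence, held 5.98%, 5.56% and 5.32% of the Osm counts with TCR alone and 1.84%, 4.25% and 3.35% with DMGV. The difference in the mean share was -2.47 percentage points from counts and -6.22 from transcript FPKM, and the exact permutation test gave p = 0.1, the smallest it can give, on both. How often shares of other transcripts reach that value was not counted. The test of the Osm-202 counts gave a log2 fold change of -0.77 (95% interval -1.78 to 0.23, unadjusted p = 0.106, edgeR). The Osm-202 counts were only 28 to 30 with TCR alone and 12 to 24 with DMGV. Shares of transcripts that overlap are estimates of the authors' assembly program, and their error is not in the counts.

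**Figure D5:**
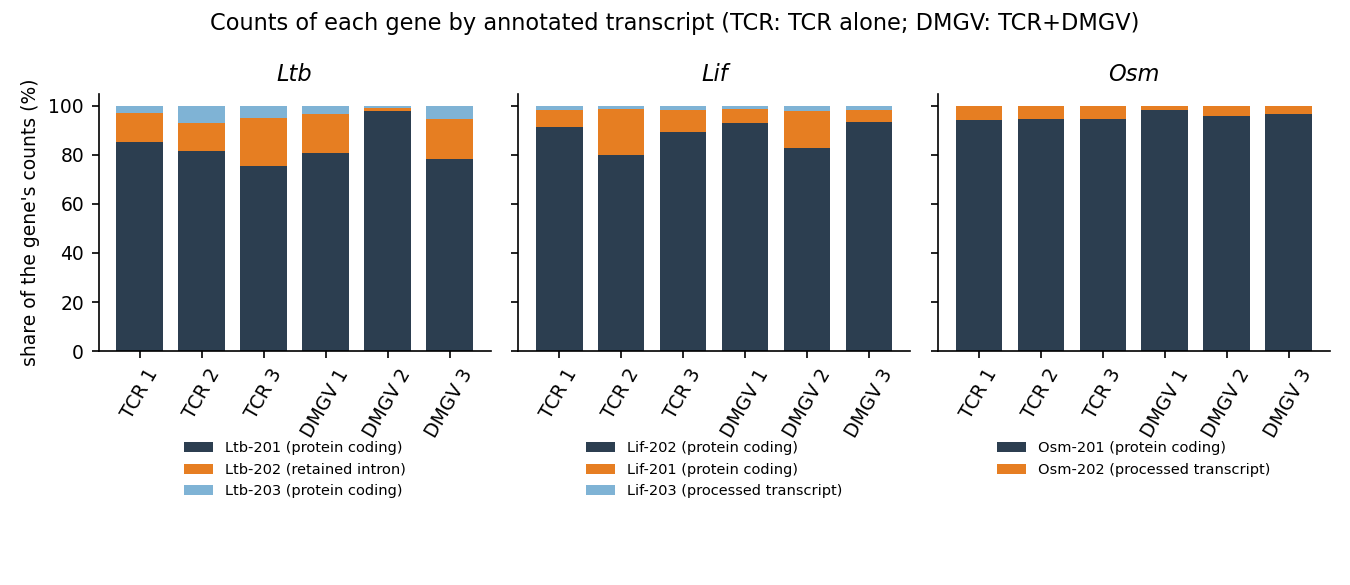
Share of the counts of Ltb, Lif and Osm in each annotated transcript (y axis, percent), for the 3 TCR alone (TCR) and the 3 TCR+DMGV (DMGV) samples. The retained intron form Ltb-202 holds 1.25% in TCR+DMGV replicate 2, and Lif-201 is highest in the replicates numbered 2.

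The receptors, regulators and target genes of these cytokines, taken as 7 lists, held no gene past the threshold (edgeR, all adjusted p of 0.999), and DESeq2 and limma called none either. Of the 13 receptor chains 11 were tested, 6 above and 5 below 0 with a median of 0.02. The smallest p belonged to Tnfrsf1b, encoding TNF receptor 2, with a log2 fold change of 0.11 (unadjusted p = 0.154, edgeR), and Il6st, encoding gp130, with one of 0.21 (unadjusted p = 0.187, edgeR). Osmr had 0 counts in all samples. Of 17 transcription factors tested, 12 were above 0, with a median of 0.03, and Jun at -0.16 and Junb at 0.17, both AP-1 subunits, had the smallest p (0.117 and 0.121 unadjusted, edgeR). Of the 8 receptors whose signals favour type 1 cytokines 1 was above 0, Il12rb1 at 0.11, and the smallest p was that of Il12rb2, the inducible chain of the IL-12 receptor, at -0.20 (unadjusted p = 0.109, edgeR).

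Of 14 factors of mRNA decay or of TNF shedding, 6 were above 0, with a median of -0.02. Zc3h12a, encoding Regnase-1, had a log2 fold change of 0.17 (unadjusted p = 0.146, edgeR) and its relative Zc3h12d one of -0.09 (unadjusted p = 0.258, edgeR). Of 22 genes that answer to IFN-γ, 6 were above and 16 below 0, with a median of -0.08. The smallest p was that of Cxcl9, a chemokine induced by IFN-γ, with a log2 fold change of 0.70 (SE 0.27, unadjusted p = 0.033, edgeR). Cxcl9 was low, at 1.90, 1.18 and 1.62 CPM with TCR alone and 2.38, 3.02 and 2.22 CPM with DMGV. The GTPase gene Gbp4 followed at -0.24 (unadjusted p = 0.077, edgeR), with 256, 228 and 192 CPM with TCR alone and 178, 201 and 194 CPM with DMGV, which overlapped. Of the 22 genes, the groups of 1, Cxcl9, did not overlap with the TCR+DMGV samples above and those of 2 did not overlap with them below, against 4.92% and 3.94% of all genes. The 2 were Gbp3, at 41.0 to 45.3 CPM with TCR alone and 37.5 to 40.2 CPM with DMGV, and Gbp5, at 174.2 to 186.1 and 154.7 to 173.7 CPM, both named after their values were seen.

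Of 12 genes that answer to TNF and NF-kB, 7 were above 0, with a median of 0.01. Traf1, an adaptor of TNF receptors, had a log2 fold change of 0.22 (unadjusted p = 0.063, edgeR). It had 67.4 to 81.4 CPM in the TCR alone samples and 83.0 to 92.7 CPM in the TCR+DMGV samples. The groups of 2 of the 12 genes, Traf1 and Nfkb2, did not overlap, TCR+DMGV being above, against 4.92% of all genes. Nfkb2, at 273.7 to 283.2 and 294.3 to 300.8 CPM, was named after its values were seen. Among the lists above, the groups of Tnfrsf1b, Il12rb1 and Zc3h12a also did not overlap in that direction, each the only 1 of its list. Tnfaip3, encoding the NF-kB inhibitor A20, had a log2 fold change of -0.38 (unadjusted p = 0.134, edgeR). Its CPM was 72.0 to 75.1 with TCR alone and 80.3, 45.8 and 43.8 with DMGV. TCR+DMGV replicate 1 was thus above and the other 2 DMGV samples below all TCR alone samples. Of 8 genes that answer to STAT5 or STAT3, 4 were above 0, with a median of 0.008. Socs3, a feedback inhibitor of gp130 signalling, had a log2 fold change of -0.21 (unadjusted p = 0.117, edgeR) and Cish, a feedback inhibitor downstream of STAT5, one of 0.29 (unadjusted p = 0.136, edgeR).

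For each cytokine gene, the gene with the nearest profile over the 6 samples was found among 11154 genes with a mean log2 CPM above 1, by the root mean square difference of their log2 CPM deviations. These were Znhit6 for Ifng (0.028), Shld1 for Tnf (0.033), Anxa11 for Lta (0.015), Mtx1 for Ltb (0.040), Pxmp2 for Csf2 (0.048), Kyat1 for Il3 (0.056), Tm2d2 for Lif (0.017) and Rev1 for Osm (0.016). No cytokine gene was nearest to another of the 8. With 6 samples and 11154 genes, such likeness is a description of these libraries.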

How the data were processed

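RNA of 6 samples of activated mouse splenic T cells was extracted with TRIzol, and mRNA libraries were sequenced on an Illumina Xten. The submitters' processing notes name HISAT2 2.0.4 and the genome build mm9, and the study's methods name StringTie. The authors deposited whole-number counts, not normalized, and FPKM values, scaled to length and depth, per gene and per transcript. The files hold no coordinates. Symbols and positions come from GENCODE M21 (GRCm38), whose identifiers matched 99.7% of genes without the version and 93.3% with it.

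Gene counts were TMM-normalized, filtered with filterByExpr and tested with edgeR 4.0.16 (quasi-likelihood test, two-sided, Benjamini-Hochberg adjustment) in R 4.3.3, which was checked on simulated counts. The transcript counts were tested likewise. Log2 CPM used a prior count of 2. DESeq2 1.42.0 and limma 3.58.1 on log2(FPKM + 1) or log2(FPKM + 0.1) were alternatives, as were other scalings, no filter, summed transcript counts, the replicate number as a block and each sample left out. Exact permutation tests were computed with Python 3.11.15. The labels call the samples biological replicates. No 2 samples of a group agreed within sampling noise (median chi-square per gene from 3.89 to 9.00). The intervals of fold changes come from the edgeR fit and include the spread between samples. The counting errors, given as a percentage of a value, cover counting only.

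The 8 genes, the 7 pathway lists and the 7 cell type lists (T, B, monocyte and macrophage, dendritic, NK, neutrophil, mast cell and basophil) were chosen with earlier results of these data known. Named genes were all 8 members, the 2 genes of smallest p of each pathway list, the most abundant marker and the markers at 0 of each cell type list, and the gene nearest in profile to each member.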

Additional observations from a re-analysis of the deposited data

How the results depend on the processing

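None of the 8 cytokine genes and none of the pathway genes passed the threshold in any of the 15 alternatives, and no cytokine transcript did in any of 10. Except for Lif, each gene kept a change above 0 in all 15, with adjusted p from 0.649 to 0.99999 for Tnf. Lif was at -0.0021 with library size only, -0.0095 and -0.0087 with limma on log2(FPKM + 0.1) and log2(FPKM + 1), -0.03 without TCR alone replicate 3 and TCR+DMGV replicate 1, and between -0.107 and 0.083 with 1 sample left out. The count of genes past the threshold over all genes moved from 2 to 14 with DESeq2 (500 at an unadjusted p under 0.05), 12 without the 2 samples that stood apart (972), 1 with library size only and 1 with no filter, 0 in both limma fits (710 and 765), and between 0 and 5 with 1 sample left out. The cause was not tested. The count of cytokine genes above 0 (7 or 8) and of T cell markers above 0 (11 to 13) over the alternatives was added after the data were seen.

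The replicate numbers gave no evident pairing of the samples, though 3 samples a group cannot exclude one. Same-numbered samples correlated at -0.15, 0.12 and -0.15 in their deviations from the group means. Only the samples numbered 2 correlated best with their own number. The highest correlation was 0.31, between TCR alone replicate 3 and TCR+DMGV replicate 1. With the replicate block edgeR called 0 genes (340 at an unadjusted p under 0.05), and no cytokine gene changed its call.

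With 1 sample left out, the cytokine genes whose groups did not overlap numbered 1 to 4, since fewer samples overlap less. The difference in log2 ratio ran from 0.15 to 0.33 for Tnf to Lta, from -0.12 to -0.0099 for Lif to Osm, from -0.067 to 0.075 for Ltb to Lta and from -0.067 to 0.232 for Csf2 to Il3. The difference in share, in percentage points, ran from -0.044 to 0.0046 for Ifng-201, -0.0046 to 0.044 for Ifng-202, -6.15 to 0.661 for Lif-201, -0.631 to 6.25 for Lif-202, -0.100 to 0.282 for Lif-203, -1.10 to 8.62 for Ltb-201 and -5.68 to 1.83 for Ltb-202.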

Other observations

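The B cell, monocyte and macrophage, dendritic cell, and mast cell and basophil lists had no marker past the threshold (edgeR, adjusted p of 0.999), and none of the tested genes of these 4 lists had an unadjusted p under 0.05. Of the B cell markers 1 of 4 tested was above 0, with a median log2 fold change of -0.07, of the monocyte and macrophage markers 1 of 3, with a median of -0.08, and of the dendritic cell markers 2 of 3, with a median of 0.35. Gata2, the only mast cell and basophil marker tested, had a log2 fold change of -0.50 (SE 0.67).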
